A study of Homo sapiens with 6 samples.

Results

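The genes described here are 10 negative-feedback regulators and transcription factors of the RAS-RAF-MEK-ERK pathway: the dual-specificity phosphatase genes DUSP4, DUSP5 and DUSP6, the Sprouty genes SPRY2 and SPRY4, the Sprouty-related genes SPRED1 and SPRED2, the ETS-family factor genes ETV4 and ETV5, and PHLDA1. They were taken by gene symbol, and all 10 were found among the 28278 rows of the count tables and passed the filter on low counts that left 15131 genes. They were measured in RKO cells, a human colon carcinoma cell line that carries an activating BRAF mutation. The shTRIM21 group was 3 libraries of cells with a lentiviral short hairpin against TRIM21, an E3 ubiquitin ligase, labelled as TRIM21 knockdown. The shControl group was 3 libraries of cells with a scrambled hairpin, labelled as wild type. Cells of both groups were infected with lentivirus and held in puromycin at 5 µg/ml, added 36 h after infection and kept for 2 to 3 weeks, so neither group is uninfected RKO. Only a single hairpin or hairpin pool per arm can be told from the labels. The titles call the libraries biological replicates, but no separate infections are stated. The p-values thus set the group difference against the spread between these libraries, which may be technical. A source label names mouse tissue, while the organism, the line and the symbols are human.

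In this pathway, growth factor receptors activate RAS, which activates the RAF, MEK and ERK kinases in turn. ERK induces transcription of its own inhibitors: DUSP phosphatases remove the phosphates that activate ERK, and Sprouty and SPRED proteins act upstream, at the level of RAS and RAF. ETV4 and ETV5 are PEA3-type ETS factors whose transcription rises with ERK activity, and PHLDA1, a pleckstrin-homology-like protein, is induced alongside them. In tumour lines with mutant BRAF these transcripts are widely used as a readout of ERK output.

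Total RNA depleted of ribosomal RNA gave 33499827 to 38051662 counts per shTRIM21 library and 33829727 to 44466137 per shControl library. Ribosomal RNA rows took 17.0% to 23.5% of counts in shTRIM21 and 14.7% to 36.9% in shControl (p = 0.4, two-sided exact permutation test, where 0.1 is the smallest possible). TRIM21 itself was at 7.58 ± 0.574 CPM in shTRIM21 and 11.0 ± 1.40 CPM in shControl (CPM, the count as parts of a library size scaled by TMM factors, which assume that most genes do not change; SD, n = 3 each), a log2 fold change of -0.54 with SE 0.12 and adjusted p = 0.00424 by edgeR. This call was lost with library sizes alone (-0.34, adjusted p = 0.197). Summed epithelial markers were at 4778 to 5012 CPM in shTRIM21 and 6131 to 6773 CPM in shControl, with all 6 markers detected. Within that list the keratin genes KRT8, KRT18 and KRT19 fell, CDH1 rose (log2 fold change 0.57, edgeR adjusted p = 3.31e-05), and EPCAM and CLDN4 were not called, so the list did not move as a whole. Summed intestinal differentiation markers were at 50.6 to 52.7 and 60.9 to 63.3 CPM in shTRIM21 and shControl, with CDX1 of 6 at 0. Of the 3 tested there, CA2 fell (19.0 CPM in shTRIM21 and 28.9 CPM in shControl), while CDX2 at -0.0044 and VIL1 at -0.053 on the log2 scale were not called. Fibroblast markers summed to 10.4 to 10.8 CPM in shTRIM21 and 6.12 to 9.19 CPM in shControl, with DCN, LUM and THY1 of 6 at 0. COL1A1 made up nearly all of that sum, at 10.2 CPM in shTRIM21 and 7.88 CPM in shControl, and was not called (edgeR adjusted p = 0.0589). Immune markers summed to 6.21 to 6.82 CPM in shTRIM21 and 7.40 to 8.72 CPM in shControl, with CD3E of 6 at 0. There CD68 made up nearly all, at 6.08 CPM in shTRIM21 and 7.52 CPM in shControl, and was not called (edgeR adjusted p = 0.0813). Endothelial markers summed to 0.264 to 0.720 CPM in shTRIM21 and 0.326 to 0.580 CPM in shControl, with CDH5 and EMCN of 5 at 0. The part of these shifts in the results below was not tested, and in bulk RNA a change in cell number cannot be told apart from a change in RNA per cell.

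The 10 genes did not move as a block. With edgeR's quasi-likelihood test at a Benjamini-Hochberg adjusted p under 0.05 over all tested genes, DUSP4, DUSP5, SPRY4 and ETV5 fell in shTRIM21, DUSP6 rose, and SPRY2, SPRED1, SPRED2, ETV4 and PHLDA1 were not called. Thus 5 of 10 were called, against a background of 20.8% of all tested genes in either direction. In the lower direction 4 of 10 were called against 11.0% of all genes, and in the higher direction 1 of 10 against 9.77%. The libraries of the groups did not overlap for 6 of the 10, namely the called genes and ETV4, against 37.7% of all tested genes. These backgrounds are not matched for level, and small changes are easier to call in well-counted genes. By mean level the called genes lay between the 88.6th percentile (SPRY4) and the 94.7th (DUSP4) of all tested genes. Of those not called, SPRY2 was at the 27.9th and PHLDA1 at the 98.9th. The median log2 fold change of the 10 was -0.17, within a range of -0.64 to 0.24, and that of all tested genes was 0.0054. The largest change among the 10 was 1.56-fold, for DUSP5.

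**Figure D1:**
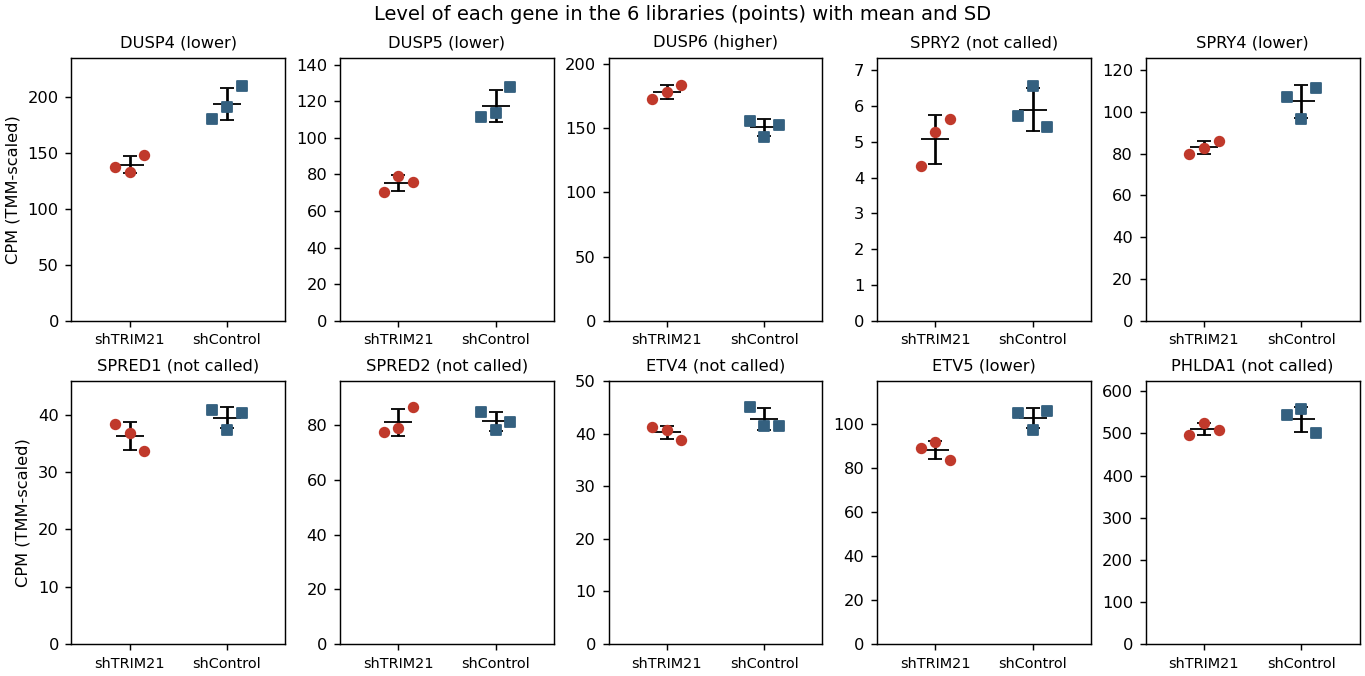
Level of each of the 10 genes in CPM, scaled by TMM factors, in the 3 shTRIM21 libraries (red circles) and the 3 shControl libraries (blue squares), with the mean and SD in black and the call in each title. The shTRIM21 points lie below all shControl points for DUSP4, DUSP5, SPRY4, ETV4 and ETV5 and above them for DUSP6.

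Among the ERK phosphatases, DUSP5 had the largest change of the 10 genes. DUSP5, an ERK-specific phosphatase of the nucleus, had 70.5, 79.2 and 75.9 CPM in shTRIM21, against 111, 114 and 128 CPM in shControl. Every shTRIM21 library was thus below every shControl library. The level fell 1.56-fold (log2 fold change -0.64, SE 0.065, 95% interval -0.78 to -0.51; edgeR adjusted p = 6.94e-06), and it ranked 124 by p-value among the 15131 tested genes. The gene spans chromosome 10, 110497907 to 110511533 in build GRCh38.p14, without an overlapping RefSeq gene.

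DUSP4, a nuclear phosphatase that acts on ERK and also on other MAP kinases, had 137, 133 and 148 CPM in shTRIM21, against 180.2, 191 and 209 CPM in shControl. The groups were apart, the closest libraries being 148 CPM in shTRIM21 and 180.2 CPM in shControl. DUSP4 was 1.39-fold lower (log2 fold change -0.47, SE 0.062, 95% interval -0.61 to -0.34; edgeR adjusted p = 9.33e-05). It lies on chromosome 8 at 29333064 to 29350684, with no overlapping RefSeq gene.

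DUSP6, the cytoplasmic ERK phosphatase, went the other way. It had 173, 178 and 184 CPM in shTRIM21, against 156, 143 and 153 CPM in shControl, with every shTRIM21 library above every shControl library. The rise was 1.18-fold (log2 fold change 0.24, SE 0.053, 95% interval 0.13 to 0.36; edgeR adjusted p = 0.00461). Its size lay within the 10th to 90th percentile of all tested genes, -0.28 to 0.44. DUSP6 was called higher in the main test and under each of the 15 alternative settings, with log2 fold changes from 0.21 to 0.46. The largest, 0.46, came with library sizes alone, where the median of all tested genes was also shifted up, to 0.22. It lies on chromosome 12 at 89347235 to 89352501, where RefSeq also annotates the readthrough gene POC1B-DUSP6, and the GENCODE annotation has an antisense transcript. Reads from these could not be separated here, since the authors' use of strand is not given in the sources used here.

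Because a ratio of counts within a library does not depend on how libraries are scaled, the phosphatases were also compared in that way, a comparison chosen after seeing the data. DUSP6 made up 45.5%, 45.7% and 45.2% of the reads of DUSP4, DUSP5 and DUSP6 together in the shTRIM21 libraries, against 34.9%, 32.0% and 31.2% in the shControl libraries. The 95% Wilson intervals, which cover counting error only, were all within 44.4% to 46.4% in shTRIM21 and within 30.5% to 35.6% in shControl. The mean share was 45.4% ± 0.246 in shTRIM21 and 32.7% ± 1.91 in shControl (SD, n = 3 each; two-sided exact permutation p = 0.1, the smallest this design allows). DUSP4 and DUSP5 together summed to 214 ± 8.15 CPM in shTRIM21 and 311 ± 23.4 CPM in shControl, and with DUSP6 added to 393 ± 13.6 CPM and 462 ± 24.3 CPM in shTRIM21 and shControl (SD, n = 3 each). Each sum also gave p = 0.1 in the exact permutation test.

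The ratio of DUSP4 to DUSP6 reads was 0.792, 0.746 and 0.801 in shTRIM21, against 1.16, 1.33 and 1.37 in shControl, so DUSP4 had more reads than DUSP6 in the control libraries and fewer in the knockdown libraries. The ratio of DUSP5 to DUSP6 reads was 0.407, 0.445 and 0.413 in shTRIM21, against 0.713, 0.794 and 0.835 in shControl. Reads scale with transcript length, so these ratios compare libraries, not the abundance of the genes. The same ratio was formed for the other members: for 9 of 9 the shTRIM21 libraries were all below the shControl libraries, with log2 differences from -0.89 for DUSP5 to -0.25 for SPRED2, each at p = 0.1 in the exact permutation test. These 9 ratios share DUSP6 as their denominator and are not independent. DUSP6 was the only member called higher, so a gene that did not change also gives a lower ratio. SPRED2, at a log2 fold change of -0.0067, is such a gene. The count of 9 is thus no separate result about the other members. The share of all tested genes with such a ratio to DUSP6 was not computed.

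**Figure D2:**
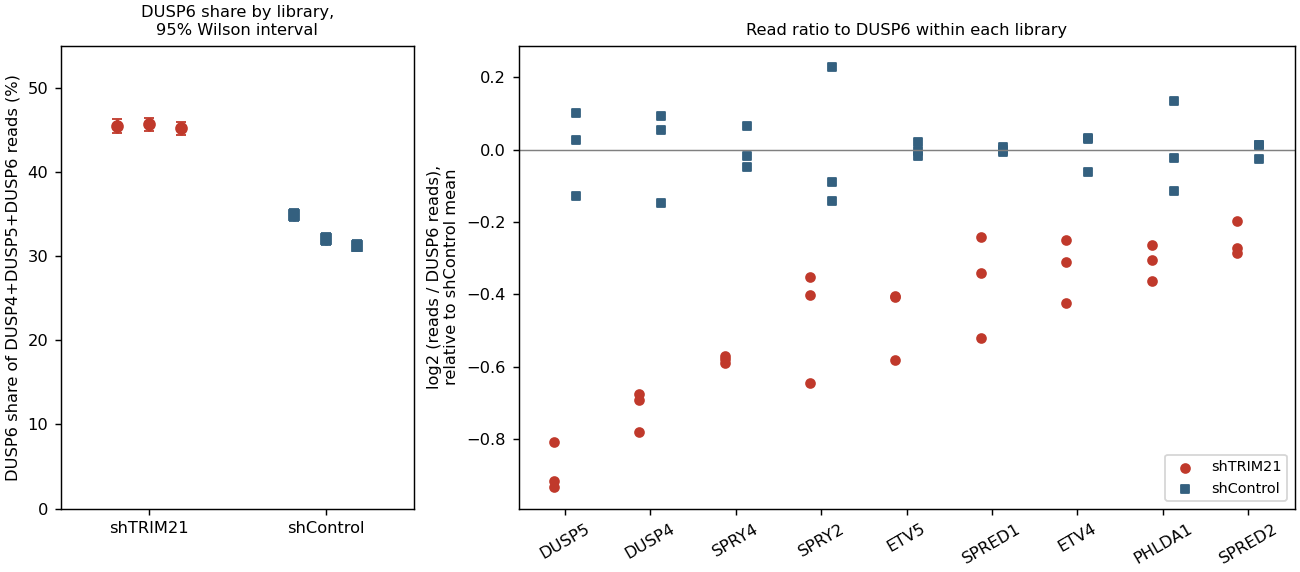
Left, the share of DUSP6 in the summed reads of DUSP4, DUSP5 and DUSP6 in each library, in percent with 95% Wilson intervals, near 45% in shTRIM21 (red circles) and between 31.2% and 34.9% in shControl (blue squares). Right, the log2 ratio of each other gene's reads to DUSP6 reads within each library, set to a mean of 0 in shControl; all shTRIM21 points lie below the shControl points of the same gene.

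The Sprouty genes differed in level and in how firmly they could be measured. SPRY4, whose product restrains RAS and RAF activation downstream of receptors, had 80.0, 82.8 and 86.1 CPM in shTRIM21, against 107, 96.3 and 111 CPM in shControl. The groups did not overlap, and SPRY4 was 1.26-fold lower (log2 fold change -0.34, SE 0.062, 95% interval -0.47 to -0.21; edgeR adjusted p = 0.00137). The higher shControl values were those of replicates 1 and 3. These libraries had the largest shares of ribosomal RNA (31.0% and 36.9%, against 14.7% in replicate 2). In ETV5, DUSP6, SPRED1 and SPRED2 replicates 1 and 3 were likewise above replicate 2. The other members differed: replicate 2 lay between replicates 1 and 3 in DUSP4, DUSP5 and, narrowly, ETV4, and was the highest in SPRY2 and PHLDA1. With ribosomal RNA rows left out and TMM factors, 5 of the 10 genes were called, as in the main test. The part of ribosomal RNA in these values was not tested. Without shControl replicates 1 and 3, which leaves a lone control library, the SPRY4 change was -0.22. SPRY4 lies on chromosome 5 at 142310430 to 142325021 and overlaps SPRY4-IT1 and SPRY4-AS1, whose own rows held 11 to 29 counts per library.

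SPRY2, an inhibitor of receptor tyrosine kinase signalling, was the lowest of the 10 genes, with 162, 206 and 213 counts in shTRIM21 and 216, 241 and 196 in shControl. Scaled levels were 4.32, 5.26 and 5.63 CPM in shTRIM21, against 5.72, 6.56 and 5.41 CPM in shControl, and the groups overlapped. Its log2 fold change was -0.22 with a 95% interval of -0.52 to 0.085 (edgeR adjusted p = 0.303), so a fall like that of SPRY4 or a slight rise both lie within the interval. Counting error alone gives SPRY2 a coefficient of variation of 7.19% in shTRIM21 and 6.78% in shControl, against at most 2.69% for the other 9 genes. The ratio of SPRY4 to SPRY2 reads, 15.3 to 18.5 in shTRIM21 and 14.7 to 20.6 in shControl, overlapped between groups (exact permutation p = 0.6), so a difference in response between these relatives was not detectable.

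The SPRED genes, which encode Sprouty-related inhibitors that bring neurofibromin to RAS, were not called. SPRED1 had 38.4, 36.8 and 33.6 CPM in shTRIM21, against 40.8, 37.4 and 40.3 CPM in shControl, overlapping between groups (log2 fold change -0.12, 95% interval -0.27 to 0.024; edgeR adjusted p = 0.226). SPRED2 had 77.6, 78.9 and 86.9 CPM in shTRIM21, against 85.1, 78.2 and 81.3 CPM in shControl, and had the smallest change of the 10 (log2 fold change -0.0067, 95% interval -0.14 to 0.12; edgeR adjusted p = 0.953). The interval of SPRED2 leaves out the falls measured for DUSP4, DUSP5, SPRY4 and ETV5 and the rise of DUSP6. SPRED1 spans 104414 bases of chromosome 15 from 38252836 and SPRED2 spans 125425 bases of chromosome 2 from 65307175, and no other RefSeq gene overlaps either.

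Of the ETS factors, ETV5 fell slightly and ETV4 was not called. ETV5 had 89.1, 91.9 and 84.0 CPM in shTRIM21, against 105, 97.6 and 106 CPM in shControl, without overlap (1.17-fold lower, log2 fold change -0.22, SE 0.057, 95% interval -0.34 to -0.099; edgeR adjusted p = 0.0132). This call was the least firm of the 5. It was lost without shControl replicate 3 (-0.21, adjusted p = 0.053). It was also lost with library sizes alone, either with ribosomal RNA rows (-0.0058) or without them (-0.16, adjusted p = 0.0662). Without shControl replicates 1 and 3, which leaves a lone control library, the ETV5 change was -0.15.

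ETV4 had 41.3, 40.7 and 38.9 CPM in shTRIM21, against 45.1, 41.5 and 41.5 CPM in shControl. Every shTRIM21 library was below every shControl library by a narrow margin, and the change was -0.085 with a 95% interval of -0.22 to 0.049 (edgeR adjusted p = 0.371). The ratio of ETV5 to ETV4 reads was 2.16, 2.26 and 2.16 in shTRIM21, against 2.33, 2.35 and 2.55 in shControl, a log2 difference of -0.14 at the smallest p of 0.1. ETV4 shares its locus on chromosome 17, 43527846 to 43546340, with DHX8 on the opposite strand, a gene of 2332 to 2597 counts per library. ETV5, on chromosome 3 at 186046314 to 186109089, overlaps ETV5-AS1 and LOC124909470 in RefSeq and, in GENCODE, the same-strand gene DGKG, whose own row held 210 to 302 counts per library.

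PHLDA1 was the most abundant of the 10 genes and was not called. It had 497, 526 and 507 CPM in shTRIM21, against 544, 558 and 501 CPM in shControl, with overlap between groups. The log2 fold change was -0.067, and its 95% interval of -0.19 to 0.053 leaves out falls as large as those of DUSP4, DUSP5, SPRY4 and ETV5 (edgeR adjusted p = 0.434). PHLDA1 lies on chromosome 12 at 76025447 to 76031776 and overlaps PHLDA1-AS1 on the annotation.

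**Figure D3:**
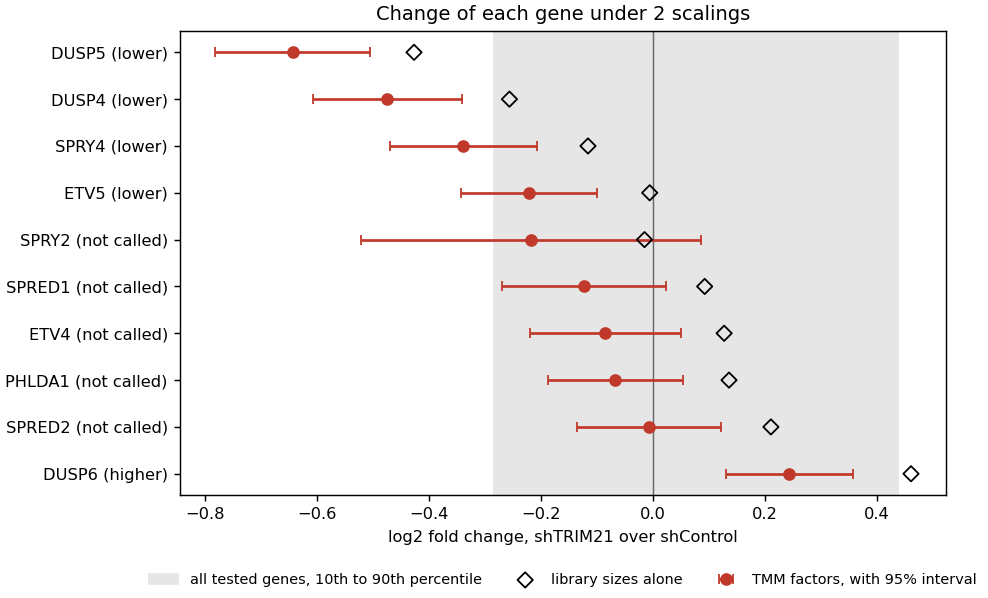
Log2 fold change of each gene, shTRIM21 over shControl, ordered from the lowest at the top, with TMM factors (red circles with 95% intervals) and with library sizes alone (open diamonds); the grey band spans the 10th to 90th percentile of all tested genes, -0.28 to 0.44. With TMM factors DUSP5, DUSP4 and SPRY4 lie below the band, while DUSP6, ETV5 and the genes not called lie inside it. DUSP6 lies above 0 under both scalings, and library sizes alone move every gene to the right.

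Scaling matters for changes of this size. Of all called genes 47.0% were higher in shTRIM21 with TMM factors, 62.1% with upper-quartile factors and 93.0% with library sizes alone, where the median of all tested genes moved to 0.22 and ribosomal RNA counts enter the library size. With library sizes alone DUSP6 was called (0.46) and the other 9 were not. DUSP4 and DUSP5 stayed negative there at -0.26 and -0.43 (edgeR adjusted p = 0.3 and 0.059), and relative to the shifted median of all genes 9 of the 10 lay below it, SPRED2 narrowly, and DUSP6 above. Leaving ribosomal RNA rows out and then using library sizes alone, an alternative added after seeing the data, gave 69.2% of calls higher and kept DUSP4, DUSP5, DUSP6 and SPRY4 called in the same directions.

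Between genes, levels can be compared only per length of transcript. Per kilobase of annotated exon (GENCODE release 29), PHLDA1 was highest, at 63.2 ± 1.80 CPM per kilobase in shTRIM21 and 66.2 ± 3.68 in shControl (SD, n = 3 each). DUSP6 came next in shTRIM21 at 38.5 ± 1.18 CPM per kilobase, ahead of DUSP5 at 28.8 ± 1.67. In shControl DUSP5 came before DUSP6, at 44.9 ± 3.39 and 32.5 ± 1.42 CPM per kilobase, so these genes changed places between the groups. By this length DUSP4 came after them in both, at 19.2 ± 1.05 in shTRIM21 and 26.6 ± 2.02 in shControl. The length joins the exons of all transcripts of a gene, which need not be the ones expressed here. For PHLDA1 it was 8069 bases, more than the 6330 bases that its RefSeq gene spans. It was 7257 bases for DUSP4, against 5537 in its longest coding transcript, and 4632 against 4400 for DUSP6. The order of DUSP4 and DUSP6 in shControl therefore depends on the length used. Below it SPRED2, ETV5 and SPRY4 lay between 12.6 and 17.7 CPM per kilobase. SPRED2 and ETV5 overlapped each other in shTRIM21, and in shControl ETV5 overlapped SPRY4 and SPRY4 overlapped SPRED2. ETV4, SPRED1 and SPRY2 held the last places in both groups, SPRY2 at 1.67 ± 0.222 in shTRIM21 and 1.94 ± 0.195 in shControl.

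Promoter sequence is shown for DUSP6 and SPRY4 because they are called members with opposite directions for which a RefSeq promoter window (GRCh38.p14, 250 bases before to 50 after the gene start) was at hand. Windows were matched for SPRED1, SPRED2, SPRY2, SPRY4, DUSP6 and PHLDA1, 9 windows in all. DUSP4, DUSP5, ETV4 and ETV5 had no entry. Capitals mark the ETS core GGAA or, on the other strand, TTCC, the short word that ETV factors and other ETS proteins bind. For each gene the first stretch of 30 bases before the start that holds the most cores is given, on the minus strand and 5′ to 3′. These are chr12:89352642-89352671 for DUSP6, with 3 cores, and chr5:142324468-142324497 for SPRY4, with 1 core. Other stretches before the SPRY4 start hold as many, so this one is no cluster. The SPRY4 window belongs to a start inside the gene, and the DUSP6 window lies within the first exon of a longer DUSP6 transcript in GENCODE release 29.
DUSP6: ggggcttatccggagcGGAAaTTCCtTTCC
SPRY4: acgctGGAAcgggcgtctctgggcttggtc

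The 250 bases before the DUSP6 start held 6 ETS cores, a number exceeded by 4.10% of 35116 RefSeq windows. Those before this SPRY4 start held 2, exceeded by 55.1%. For members that were not called, the numbers ran from 3 (SPRED1) to 5 (an internal SPRED2 start, exceeded by 9.14%). PHLDA1, not called, also had a stretch of 30 bases with 3 cores. The median window held 3, and 92.7% held at least 1, so the core is common and its presence is a description only. Longer words were searched on both strands of the whole windows: the Capicua octamers TGAATGAA (in 1.65% of all windows) and TGAATGGA (1.03%), the ETS octamer CCGGAAGT (4.14%), the AP-1 word TGAGTCA (4.95%), the cyclic AMP response element TGACGTCA (1.85%) and the TATA word TATAAA (11.5%). Among the 9 windows of these genes, TGAGTCA and TATAAA matched in 1 each, both in the window of an internal SPRED2 start, and the other words in 0.

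Other genes of the pathway, in lists drawn up with earlier results of these data known, were set beside the 10. Of 13 close relatives of the 10 genes, 12 were tested, 2 rose and 2 fell, against 9.77% higher and 11.0% lower of all tested genes, with a median log2 fold change of -0.12, and DUSP16 was listed at 0 in all libraries. ETV1, the third PEA3-type ETS factor, had 33.4, 30.4 and 30.3 CPM in shTRIM21, against 23.2, 20.7 and 20.6 CPM in shControl. It rose 1.46-fold (log2 fold change 0.55, SE 0.077; adjusted p = 0.000174 by edgeR), while its relative ETV5 fell. The ratio of ETV5 to ETV1 reads was 2.82 ± 0.180 in shTRIM21 and 4.80 ± 0.318 in shControl (SD, n = 3 each; exact permutation p = 0.1, the smallest possible).

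DUSP7, a further cytoplasmic ERK phosphatase gene, fell by 0.31 on the log2 scale (SE 0.071, edgeR adjusted p = 0.0064), and was not called without shControl replicates 1 and 3 (-0.18) or with library sizes alone (-0.087). PHLDA2, a relative of PHLDA1, fell by 0.29 (SE 0.071, edgeR adjusted p = 0.00973), a call also lost with library sizes alone (-0.096). SPRED3 had 102, 56 and 93 counts in shTRIM21, against 42, 47 and 42 in shControl, a log2 fold change of 0.89 (SE 0.27, edgeR adjusted p = 0.0295). That call was lost without shTRIM21 replicate 1 or 3 or any of the 3 shControl replicates. SPRY1 at 0.59 (95% interval 0.12 to 1.06, adjusted p = 0.0737) and PHLDA3 at -0.20 (adjusted p = 0.119) were not called by edgeR.

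Of 37 genes of the kinase cascade and its direct regulators, 36 were tested, 2 rose, 6 fell and 28 were not called, with a median log2 fold change of -0.044. The share called is close to the 20.8% of all tested genes, so the count is no result about the list. RPS6KA1 was listed at 0. BRAF, the mutated kinase of this line, had a log2 fold change of 0.044 (95% interval -0.10 to 0.19), at adjusted p = 0.699 by edgeR. The RAF kinase gene ARAF fell slightly, at -0.22 (SE 0.067, edgeR adjusted p = 0.031), not called with upper-quartile factors (-0.18), without shTRIM21 replicate 2 (-0.19) or 3 (-0.22) or without shControl replicate 2 (-0.22) or 3 (-0.19), among others. The ETS-factor gene ETS2 rose by 0.49 on the log2 scale (SE 0.061; edgeR adjusted p = 5.10e-05). Its relatives ELK3, ETS1 and ELK4 fell by 0.36, 0.47 and 0.28 (edgeR adjusted p 0.000568, 0.0033 and 0.00696). ATXN1, whose product binds the repressor Capicua, rose by 0.46 (SE 0.091, edgeR adjusted p = 0.00239), while CIC, the Capicua gene, was at -0.0046 (adjusted p = 0.973). The number lower was 3 in place of 6 with upper-quartile factors, without shTRIM21 replicate 2 and without shControl replicate 3, and 0 with library sizes alone.

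Of 24 other transcripts described as dependent on ERK, 12 fell and 1 rose, with a median of -0.30, against 11.0% lower and 9.77% higher of all tested genes. With library sizes alone 5 were lower and 2 higher. EMP1, an epithelial membrane protein gene, had 47.9, 47.1 and 52.3 CPM in shTRIM21, against 108, 132 and 123 CPM in shControl, 2.46-fold lower (edgeR adjusted p = 2.79e-08). EPHA2, a receptor tyrosine kinase gene, was 1.89-fold lower, MYEOV 1.79-fold, the TWEAK receptor gene TNFRSF12A 1.68-fold, the cytokine gene LIF 1.63-fold and the cyclin D1 gene CCND1 1.56-fold, with edgeR adjusted p-values from 8.97e-08 to 3.04e-06. CCND1 was not called with library sizes alone (-0.44). EGR1, named after its value was seen as the gene of the list that rose, is an immediate-early transcription factor and had 51.5, 52.1 and 54.9 CPM in shTRIM21, against 38.9, 34.4 and 32.9 CPM in shControl (1.49-fold higher, edgeR adjusted p = 4.21e-05). MYC, at 396 ± 5.60 CPM in shTRIM21 and 399.7 ± 33.1 CPM in shControl (SD, n = 3 each), had a log2 fold change of -0.014 with a 95% interval of -0.14 to 0.11 (edgeR adjusted p = 0.894). EPHA2, LIF, ELK3, ATXN1, ETS1, ELK4, ARAF and DUSP7 overlap other RefSeq genes, as do ADGRB2 and PRKCSH named below, so their reads may be shared. In GENCODE, TNFRSF12A also overlaps CLDN6, and CCND1 overlaps LTO1, both on the opposite strand.

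**Figure D4:**
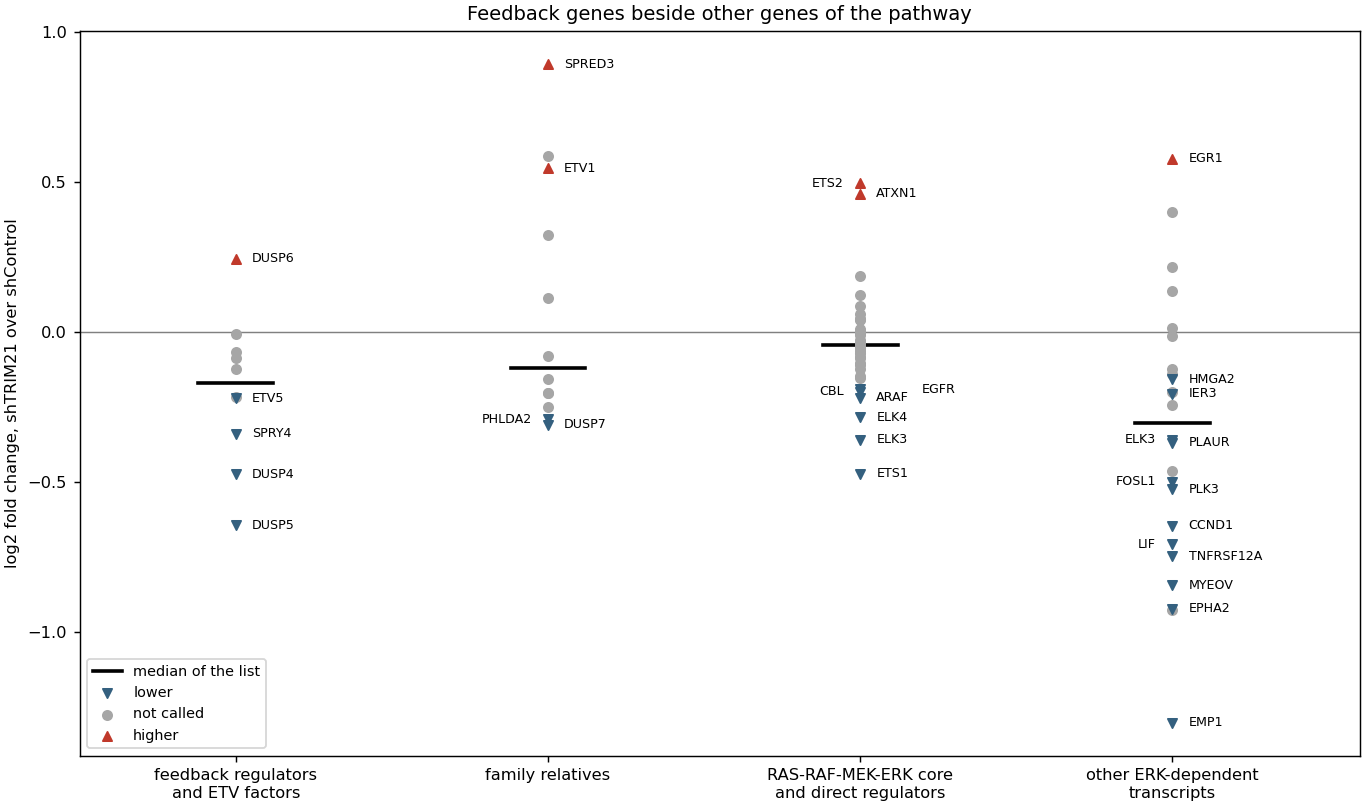
Log2 fold change, shTRIM21 over shControl, of the 10 feedback regulators and ETV factors, 12 relatives, 36 genes of the cascade with its regulators, and 24 other transcripts described as dependent on ERK (ELK3 is in both of the last lists); red triangles rose, blue inverted triangles fell, grey circles were not called, and black bars are medians. The cascade genes crowd around 0, with a median of -0.044, while the ERK-dependent transcripts spread from -1.30 to 0.58.

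The genes whose profile over the 6 libraries was most like that of DUSP6 were sought among 11096 other genes of at least 5 CPM on average, by Pearson correlation of log2 CPM. They were ADGRB2 (r = 0.998), PRKCSH (r = 0.997), B3GNT3 (r = 0.996), SPIN3 (r = 0.996) and RTL6 (r = 0.995). These values describe 6 libraries that fall into the 2 groups. Because DUSP6 separates the groups, genes picked in this way tend to differ between them. The p-values below do not allow for that choice. PRKCSH, a subunit of glucosidase II, had 247 ± 7.17 CPM in shTRIM21 and 207 ± 9.85 CPM in shControl (SD, n = 3 each), a log2 fold change of 0.26 (edgeR adjusted p = 0.00332). B3GNT3 was at 0.17 and was not called (edgeR adjusted p = 0.137).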

How the data were processed

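RNA of 3 shTRIM21 and 3 shControl libraries was analysed from the raw read counts per gene symbol that the authors deposited, with no normalization. The submitters' processing notes list the build hg38, TopHat2, limma 3.52.2 and edgeR 3.38.1, and assign them no step. How reads were counted, on which annotation and whether by strand is not given in the sources used here. Groups and replicate numbers came from sample titles.

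Tests ran in R 4.3.3 with edgeR 4.0.16 (quasi-likelihood F test on all 6 libraries, group only, TMM factors) and limma 3.58.1. filterByExpr (minimum count 10, minimum total 15) kept 15131 of 28278 genes. Benjamini-Hochberg adjustment ran over all tested genes, and genes under 0.05 were called. A standard error is the size of the log2 fold change over the root of its F statistic. The test was checked on simulated data. Alternatives were RLE, upper-quartile and no scaling factors, no filter, DESeq2 1.42.0, 37 ribosomal RNA rows left out, libraries left out and a replicate block.

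The members, lists and tests were chosen with earlier results of these data known. Genes named are the members, TRIM21, the 6 smallest p-values per list and the 5 genes most like DUSP6; EGR1, BRAF, CIC and MYC were added after their values were seen. Positions and promoters are from RefSeq (GRCh38.p14), exon lengths from GENCODE release 29. Replicates of a group differed by more than sampling noise (chi-square per degree of freedom at least 4.43).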

Additional observations from a re-analysis of the deposited data

How the results depend on the processing

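DUSP6 was called higher under each of the 15 alternatives, and DUSP4 and DUSP5 were called lower under all but library sizes alone. Library sizes alone moved the median of all tested genes to 0.22, or to 0.071 without ribosomal RNA rows. Upper-quartile factors moved it to 0.047. Such upward shifts favour a call of a rise over a call of a fall. Library sizes alone gave -0.26 for DUSP4, -0.43 for DUSP5, -0.12 for SPRY4 and -0.0058 for ETV5, none called, and turned SPRED1 to 0.092, SPRED2 to 0.21, ETV4 to 0.13 and PHLDA1 to 0.14. This left 0 of the 10 genes lower and 138 lower genes in all (edgeR). At library sizes alone the ribosomal RNA counts are part of the library size. Without ribosomal RNA rows and with library sizes alone (chosen, as were the read ratios, after seeing the data), SPRED2 was at 0.058 and ETV5 at -0.16, not called, and 2292 genes were higher and 1019 lower over all genes. SPRED2 was at 0.034 with upper-quartile factors. Without shControl replicates 1 and 3, where the lone control library is assumed to vary like the shTRIM21 libraries, SPRY4 was at -0.22 and ETV5 at -0.15, neither called, SPRED2 was at 0.046, 2 of the 10 genes were lower, and 854 genes were higher and 1104 lower over all genes. The log2 difference of the SPRY4 to SPRY2 ratio turned to 0.16 there. Leaving out 1 library at a time gave ETV5 from -0.26 to -0.19 (not called without shControl replicate 3), 3 to 4 of the 10 genes lower, SPRED2 from -0.060 to 0.023 (0.0051 without shTRIM21 replicate 2), 841 to 1211 higher and 1003 to 1398 lower genes, with the fewest calls without shTRIM21 replicate 2. With the replicate number as a block, DUSP6 was at 0.24 (edgeR adjusted p = 0.00753), ETV5 at -0.22 (adjusted p = 0.0225), and the 10 genes kept their calls, 1 higher and 4 lower; 2905 genes were called in all, against 3146. The numbers did not pair the libraries: deviations of same-numbered libraries correlated at -0.013, 0.0057 and -0.080. The causes of lost calls were not tested. SPRY2 had the fewest counts of the 10, at 162 to 241 per library.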
